A study of Mus musculus with 2 samples.

Results

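The cells described here are monocytes that were gated on 4 transcripts, Ace, Cd300e, Adgre4 and Eno3, in spleen suspensions of 1 wild-type and 1 sickle cell disease (SCD) mouse. A cell was a member when it held at least 4 unique molecular identifiers (UMIs, each standing for 1 captured transcript) of these genes together, at least 1 UMI of the monocyte receptor gene Csf1r and at most 2 UMIs of Siglech, a plasmacytoid dendritic cell gene. In addition, the major histocompatibility complex (MHC) class II genes H2-Aa, H2-Ab1 and H2-Eb1 had to stay under 0.5%, the macrophage genes C1qa, C1qb and C1qc under 0.5%, and the neutrophil genes S100a8 and S100a9 under 1% of the UMIs of the cell. Only cells that passed the quality limits were gated, which were 500 to 5000 genes, mitochondrial UMIs below 15% and ribosomal UMIs below 30%. Of 20058 such cells, 701 were members, 517 of 9423 coming from the wild-type and 184 of 10635 from the SCD mouse. The rule was written with measured values of these cells in view, so the levels of its genes are given as a description.

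Both mice were 12 to 16 weeks old and untreated, and their spleen cells had been enriched for dendritic cells by magnetic depletion of other cells before droplet-based 3′ RNA sequencing. The question of the comparison is how myeloid cells of the spleen differ under the chronic release of heme from sickling red cells. Both animals were homozygous for Hbatm1Paz, which removes the mouse alpha globin locus, and both carried the human transgene Tg(HBA-HBBs)41Paz. The wild-type mouse was a non-sickling control, heterozygous for Hbbtm1Tow and hemizygous for the transgene, whereas the SCD mouse was homozygous for both. There was 1 animal and 1 library per genotype, so no difference has a replicate check and genotype cannot be told apart from animal or library. Intervals are exact 95% intervals of shares, counts or their ratios and cover counting error only. Paired values are given with the wild-type library first, and a value with an interval in brackets after them is the ratio of SCD to wild-type.

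Monocytes leave the bone marrow as classical cells, which carry Ly6C and the chemokine receptor CCR2, and part of them convert in the circulation into non-classical cells. This conversion needs the transcription factors C/EBPβ, KLF2 and NR4A1, and the resulting cells lose Ly6C and CCR2, gain CX3CR1, CD43 and the integrin LFA-1, and patrol the inner wall of blood vessels. In the spleen they lie in the red pulp, where aged and damaged red cells are cleared.

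The wild-type library held 10845 deposited cells with a median of 4991 UMIs and the SCD library 13447 cells with a median of 8596. The members summed to 4013793 UMIs in the wild-type and 1931744 in the SCD library, with medians of 6981 UMIs and 2578 genes against 10552 UMIs and 3037 genes per cell. Ribosomal UMIs made up a median of 16.1% and 21.5% of a member's UMIs, and mitochondrial UMIs 2.50% and 2.99%. Summed levels below are UMIs per 1000000 UMIs (CPM) of all members of a library, and a difference in CPM cannot separate a change in each cell from a change in which cells pass the gate. Of the barcodes, 88 occurred in both deposited libraries and 22 in both filtered ones, but none of them was shared between members. A doublet caller marked 4 wild-type members (0.774%) and 1 SCD member (0.543%). The mouse beta globin gene Hbb-bs, at the locus of Hbbtm1Tow, was at 561 CPM in the wild-type against 3.11 CPM in the SCD cells. Of its 2251 wild-type UMIs, 2064 came from 1 cell. Hba-a1 was counted at 334 and 126 CPM although the labels give a null alpha locus for both mice, and 1022 of its 1339 wild-type UMIs also came from 1 cell.

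The 6 markers of the gate's label were all detected in both libraries. Of these, 4 are the rule genes, whose levels follow from the gate and are no check of the label. Ace, which encodes angiotensin-converting enzyme (chromosome 11, 105967948 to 105989964 in GRCm38.p6), was at 972 CPM in the wild-type against 424 CPM in the SCD cells. Cd300e, an activating receptor of the CD300 family on the same chromosome (115051917 to 115066676), was at 321 and 102 CPM. Adgre4, an adhesion receptor of the EGF-TM7 family (chromosome 17, 55749984 to 55853662), was at 636 and 434 CPM, and the enolase gene Eno3 (chromosome 11, 70653125 to 70662513) at 338 and 124 CPM. The remaining pair of markers did not enter the rule. Nr4a1, the transcription factor on which non-classical monocytes depend (chromosome 15, 101253902 to 101274795), was at 564 and 243 CPM in the members against 87.1 and 37.5 CPM in classical monocytes, gated on at least 4 UMIs of Ly6c2, Ccr2 and F13a1 and at most 1 UMI of the rule genes. The classical gate kept the other limits of the rule and also left out dividing cells and cells with over 2 UMIs of the progenitor genes Elane, Mpo and Prtn3. Fabp4, a fatty acid binding protein (chromosome 3, 10204342 to 10208616), was at 232 and 59.0 CPM against 0 and 0.468 CPM. Both of these markers were thus higher in the members than in the 283 wild-type and 200 SCD classical monocytes, and each of the 6 was lower in the SCD than in the wild-type members.

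The gate did not hold the same range of cells in both libraries. The rule genes made up a median of 0.271% of a wild-type member's UMIs and 0.0891% of an SCD member's, with ranges of 0.0238 to 0.702% and 0.0162 to 0.508%. The classical genes Ly6c2, Ccr2 and F13a1 made up a median of 0.0107% in the wild-type and 0.163% in the SCD members. Rule-gene UMIs outnumbered the UMIs of these classical genes in 397 wild-type members (76.8%, 72.9 to 80.4) but in 72 SCD members (39.1%, 32.0 to 46.6). Rule genes reached at least 0.2% of the UMIs in 332 wild-type members (64.2%, 59.9 to 68.4) and 43 SCD members (23.4%, 17.5 to 30.2). They stayed under 0.1% in 105 (20.3%) and 100 (54.3%). For the SCD members the label of non-classical monocytes therefore held less well, and they are called gated monocytes here. Results are given for all members and, as a set added after the data had been seen, for these 375 cells at or above 0.2%, called high-share members.

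**Figure D1:**
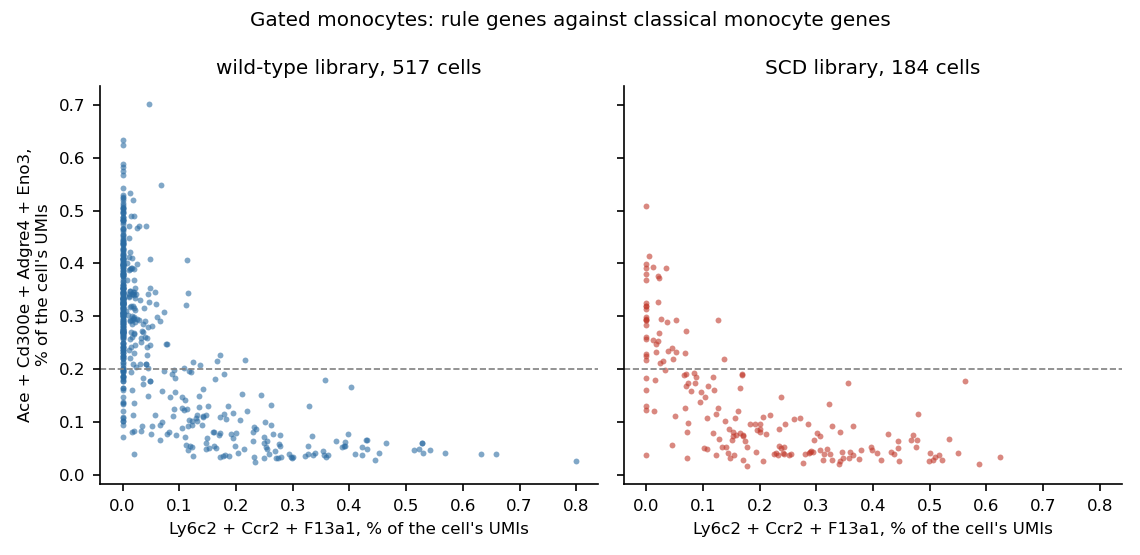
Each point is 1 gated monocyte, 517 in the wild-type (left) and 184 in the SCD library (right). The x axis gives the summed Ly6c2, Ccr2 and F13a1 UMIs and the y axis the summed Ace, Cd300e, Adgre4 and Eno3 UMIs, both as percent of the UMIs of the cell, and the dashed line marks 0.2%. In the wild-type library 332 cells lie on or above the line, whereas 43 SCD cells do and 100 SCD cells lie under 0.1%.

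Cells at the edge of the rule stood between both monocyte types. Members with 4 or 5 rule-gene UMIs numbered 61 in the wild-type and 55 in the SCD library, with Nr4a1 at 213.5 and 91.8 CPM, Itgal at 482.3 and 271.1 CPM and Ccr2 at 1486 and 1554 CPM. Just outside, 111 and 123 cells with 2 or 3 such UMIs that met every other limit had Nr4a1 at 157.6 and 69.1 CPM, Itgal at 370.5 and 193.1 CPM and Ccr2 at 1540 and 1824 CPM. Members with 10 or more rule-gene UMIs, 381 and 85 cells, had Nr4a1 at 688 and 400 CPM and Ccr2 at 198 and 591 CPM. At every step Nr4a1 was lower and Ccr2 was higher in the SCD than in the wild-type cells.

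Cells were also left out by other limits. Of 1126 wild-type and 333 SCD cells with at least 4 rule-gene UMIs, the MHC class II limit was failed by 441 and 101, the Csf1r limit by 301 and 52, the S100a8 and S100a9 limit by 84 and 28, and the C1q limit by 55 and 16.

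The share of gated monocytes was 5.49% (5.04 to 5.97) among wild-type and 1.73% (1.49 to 2.00) among SCD cells, which gives a ratio of 0.315 (0.265 to 0.374). Neutrophils, gated on S100a8 and S100a9 at 5% or more of the UMIs with Csf3r, numbered 3784 and 5813, and among the cells outside that gate the shares were 9.17% and 3.82%, a ratio of 0.416 (0.350 to 0.493). Classical monocytes were 283 and 200 of the cells, which is a ratio of shares of 0.626 (0.520 to 0.753), and members were 64.6% and 47.9% of both monocyte gates together, with 0.741 (0.623 to 0.879) as the ratio. There were 1.83 members per classical monocyte in the wild-type (1.58 to 2.12) and 0.92 in the SCD library (0.749 to 1.13), a ratio of 0.504. It became 0.229 when the S100a8 and S100a9 limit was dropped from both gates. Neutrophils held a median of 0 UMIs of Ly6c2, Ccr2 and F13a1 in the wild-type and 6 in the SCD library. Their part in the classical count without that limit was not tested. For high-share members the shares were 3.52% (3.16 to 3.92) and 0.404% (0.293 to 0.544), with 0.115 (0.0815 to 0.158) as their ratio. Because a fixed number of UMIs is easier to reach in a deeper cell, each cell was also thinned to 3000 UMIs, leaving out 3653 wild-type and 1484 SCD cells with fewer. The rule then found 379 wild-type (6.57%) and 66 SCD cells (0.721%), a ratio of 0.110. The classical gate found 321 of 5770 and 476 of 9151 cells, close to the same share in both libraries. Its upper limits on rule-gene, cell cycle and progenitor UMIs are easier to meet in thinned cells, so it is not the same gate as at full depth. Which cells it took in beyond the 283 and 200 was not tested. The share of members was thus lower in the SCD library under each of these counts, with ratios from 0.110 to 0.416 over all cells or those outside the neutrophil gate. Since magnetic depletion came first, these are shares of what it left and not of the spleen.

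Against classical monocytes of the same library, 137 of 3695 genes tested (3.71%) were at least 2-fold higher in the members in both libraries and 17 (0.46%) at least 2-fold lower. The 10 genes that were highest in the members and not used by either gate follow. Cd36, the scavenger receptor for oxidized lipids, was at 399 and 117 CPM in the members and at 2.26 and 1.87 CPM in classical monocytes. Fabp4 was not counted in 3100382 UMIs of wild-type classical monocytes, so that the wild-type members were at least 240.2-fold higher against a floor of 3 UMIs over the group. Treml4, a receptor that binds dying cells, was at 358 and 184 CPM against 11.0 and 7.96 CPM, and Ear2, an eosinophil-type ribonuclease, at 712 and 375 CPM against 40.3 and 26.2 CPM. Tcf7l2, a transcription factor of the Wnt pathway, was at 135 and 65.2 CPM against 3.55 and 1.41 CPM. Cd274, which encodes the checkpoint ligand PD-L1, was at 68.5 and 40.9 CPM against 1.94 and 0.468 CPM. Tgm2, a transglutaminase, was at 85.2 and 34.2 CPM against 1.94 and 0 CPM, and the ion cotransporter gene Slc12a2 at 139.5 and 47.1 CPM against 3.55 and 1.87 CPM. Bcl2a1b and Bcl2a1d, survival genes of the A1 family, were at 239.9 and 88.0 CPM and at 209.8 and 58.5 CPM in the members, against at most 5.16 CPM in classical monocytes. The A1 copies are near identical, so reads may be split among them. Each of these 10 genes had a lower CPM in the SCD than in the wild-type members. In high-share members, those with the rule genes at 0.2% or more of their UMIs, this did not hold for Cd274 at 101 and 129.8 CPM (1.28, 0.885 to 1.82), Tgm2 at 145 and 161 CPM (1.11, 0.798 to 1.51), Slc12a2 at 224 and 243 CPM (1.08, 0.831 to 1.39) and Ear2 at 1020.5 and 1035 CPM (1.01, 0.897 to 1.14). Treml4 and Tcf7l2 had ratios of 0.921 (0.767 to 1.10) and 0.947 (0.702 to 1.26) there, and the intervals of all 6 genes held 1. Without the top 2 cells of each library, which were 2 of 332 wild-type and 2 of 43 SCD cells, Ear2 was at 992 and 874 CPM there. Treml4 was then at 498 and 400 CPM and Cd274 at 95.0 and 106 CPM.

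The genes that were lower in the members than in classical monocytes of both libraries included several surface receptors. Cd209a, a lectin, was at 12.2 and 1.04 CPM in the members and at 235 and 29.0 CPM in classical monocytes, and the lectin Clec10a at 31.4 and 65.7 CPM against 135 and 154 CPM. Ccr1, a chemokine receptor, was at 6.23 and 26.9 CPM against 45.8 and 67.9 CPM. Cd7 was at 5.23 and 1.04 CPM against 130.0 and 64.2 CPM. S100a10, which carries annexin A2 to the membrane, was at 615 and 401 CPM against 1663 and 1008 CPM, and the galectin gene Lgals1 at 217 and 444 CPM against 816 and 1137 CPM. Pkib, Smim5 and Olfm1 were also among the 10 lowest, at between 4.82-fold and 2.95-fold lower in wild-type members. Cd7, Cd209a and S100a10 were lower in the SCD than in the wild-type members.

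Between the libraries, 3498 genes had at least 50 CPM and 20 UMIs in the members of at least 1 library. Of these, 55 (1.57%) were at least 2-fold higher and 119 (3.4%) at least 2-fold lower in the SCD members, on log2 ratios with 5 CPM added to each value. The median over all genes was -0.14, and scaling by the median of gene ratios, which moves it to 0, gave 75 higher and 80 lower. In classical monocytes, 24 of 3234 genes (0.742%) were higher and 41 (1.27%) lower. In high-share members, 38 of 3436 (1.11%) were higher and 71 (2.07%) lower. A gene past 2-fold differs between these 2 libraries, which is not a test of the genotype. Since a gene can pass this minimum through 1 library only, the one where it is high, the counts and medians of the lists below are descriptions of the genes that passed. With no minimum the medians were -1.12 for the non-classical programme, 0.87 for classical genes, -0.82 for immediate early genes, -0.80 for heat shock chaperones and 1.64 for the cell cycle.

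The non-classical programme was lower in the SCD members. Of its 24 expressed genes, 13 were at least 2-fold lower and none at least 2-fold higher, with a median log2 ratio of -1.12. Nr4a1 had a ratio of 0.431 (0.390 to 0.477) and Fabp4 of 0.254 (0.207 to 0.309). Itgal, the alpha chain of LFA-1 that holds patrolling cells to the endothelium, was at 1446 CPM in the wild-type against 598 CPM in the SCD cells, a ratio of 0.414 (0.388 to 0.441). Pou2f2, the transcription factor OCT2, was at 1348 and 499.5 CPM (0.371, 0.346 to 0.397). Cebpb, which is needed for these cells to survive and acts upstream of Nr4a1, was at 1956 and 992 CPM (0.507, 0.482 to 0.533). Dusp16, a phosphatase of JNK and p38 kinases, was at 163 and 40.9 CPM (0.251, 0.196 to 0.317). Gngt2, a G protein subunit, differed least of those named, at 1687 and 1368 CPM (0.811, 0.775 to 0.849). Each of these genes was lower in the SCD library with an interval that left out 1, yet by between 1.23-fold for Gngt2 and 3.99-fold for Dusp16.

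In the high-share members, none of the 24 genes was at least 2-fold lower and the median was -0.20. Nr4a1 was at 767 and 697 CPM there (0.909, 0.782 to 1.05), Fabp4 at 388 and 355 CPM (0.916, 0.740 to 1.12) and Cd36 at 639.9 and 625 CPM (0.977, 0.833 to 1.14). The intervals of these 3 genes held 1, but part of the SCD sums came from few cells. For Nr4a1 45 of 204 and for Fabp4 30 of 104 SCD UMIs came from 2 cells. Without the top 2 cells of each library Nr4a1 was at 743 and 543 CPM, Fabp4 at 368 and 253 CPM and Cd36 at 617 and 540 CPM. This left out 2 of 332 wild-type but 2 of 43 SCD cells, which by itself can lower the SCD sums more. These sums therefore do not show a difference between the libraries. Itgal was at 1974 and 1469 CPM (0.744, 0.672 to 0.822), Pou2f2 at 1820.4 and 1209 CPM (0.664, 0.594 to 0.741) and Cebpb at 2373 and 1848 CPM (0.779, 0.711 to 0.851), which were still lower in the SCD cells. The members under 0.2% had a median of -0.68, and the classical monocytes, in which 14 of the genes were expressed, one of -0.27. The programme shares no gene with the rule, but the high-share set was chosen on transcripts that accompany it, and its smaller difference is a description.

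**Figure D2:**
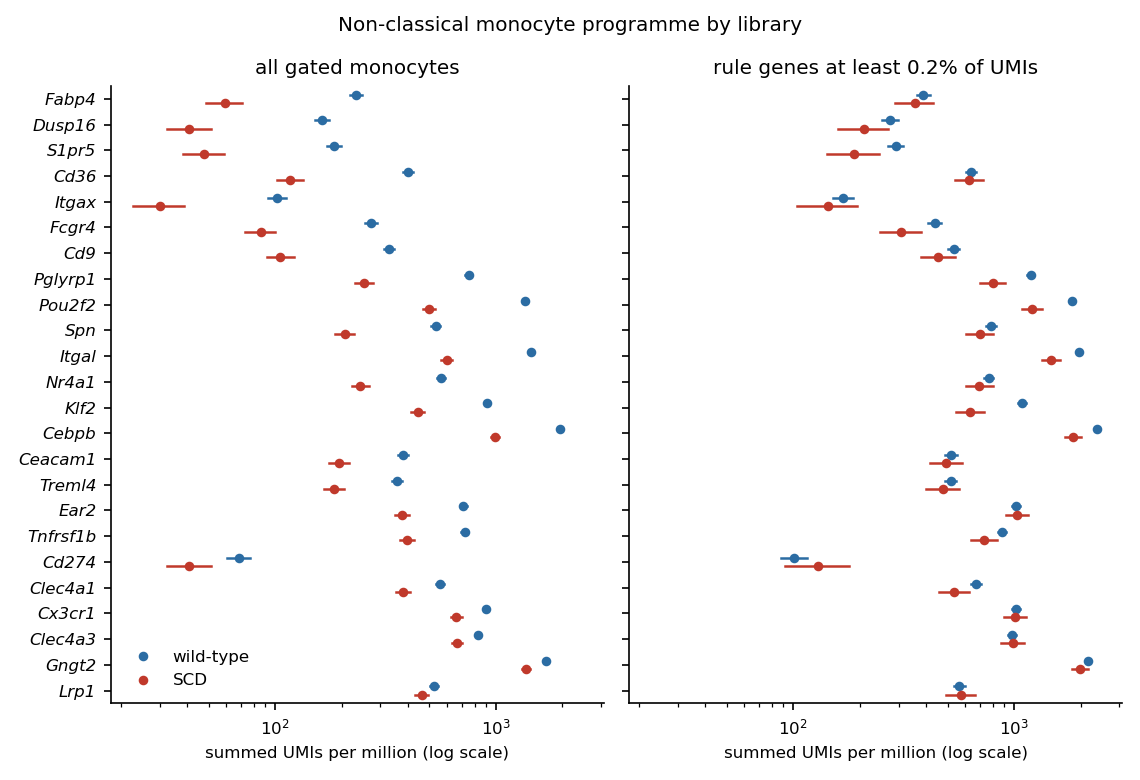
Summed CPM (log scale) of 24 genes of the non-classical programme in wild-type (blue) and SCD (red) cells, for all gated monocytes (left) and for those with rule genes at or above 0.2% of their UMIs (right). Points are summed levels of 1 library and lines are exact 95% Poisson intervals. On the left every red point lies below its blue point, with Nr4a1 at 564 and 243.3 CPM. On the right the red point lies lower for 20 of the 24 genes, with Nr4a1 at 767 and 697 CPM.

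The classical genes, which include Ly6c2, Ccr2 and F13a1 of the classical gate, differed the other way. Of 16 expressed genes, 7 were at least 2-fold higher in the SCD members and none at least 2-fold lower, with a median of 0.86. Ccr2, the receptor that lets monocytes leave the marrow, was at 489.8 and 1129 CPM (2.30, 2.17 to 2.45), against 1659 and 2009.9 CPM in classical monocytes. Vcan, a matrix proteoglycan, had a ratio of 3.28 (2.75 to 3.92). Plac8, which is found in Ly6C-high monocytes, was at 3118 and 6672 CPM (2.14, 2.09 to 2.19). Lyz2, the lysozyme gene of myeloid cells, was at 17074 and 19522 CPM (1.14, 1.13 to 1.16) and Ms4a6c at 979 and 1298 CPM (1.33, 1.26 to 1.39). In the high-share members no classical gene was past 2-fold among those expressed, and the median was 0.30. Plac8 still differed there, at 2326 and 3689 CPM (1.59, 1.48 to 1.69). After thinning each member to 2000 UMIs, which left out 4 wild-type cells, Ccr2 was seen in 29.0% and 68.5% of members, against 1.36% and 3.48% of neutrophils, which should lack it. The unthinned shares were 42.6% and 79.9% of members, and the median depth of neutrophils was 2527 and 6406 UMIs. The median number of UMIs of the classical list per thinned cell was 35 and 66.5, and of the non-classical programme 37 and 17.

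Immediate early genes, which are induced within minutes by stress, adhesion or signals, were lower in the SCD members. Of 16 expressed genes, 8 were at least 2-fold lower and none at least 2-fold higher, with a median of -0.99. Fos, a subunit of the AP-1 transcription factor, was at 91.7 CPM in the wild-type against 10.4 CPM in the SCD cells, a ratio of 0.113 (0.0682 to 0.177). Dusp1, a phosphatase that ends p38 kinase signalling, was at 87.7 and 10.9 CPM (0.124, 0.0758 to 0.192). Both were also lower in SCD classical monocytes, with Fos at 261 and 27.2 CPM and Dusp1 at 93.2 and 3.75 CPM there. Jund was at 365 and 90.1 CPM (0.247, 0.210 to 0.289) and Junb at 317 and 152 CPM (0.479, 0.420 to 0.544), both AP-1 subunits. Klf4, a factor of the monocyte lineage, was at 605 and 319 CPM (0.528, 0.482 to 0.577), and Nfkbia, the inhibitor of NF-κB, at 311 and 219 CPM (0.705, 0.630 to 0.788). Every expressed gene of the list was thus lower in the SCD members, and the median in classical monocytes was -0.92, with 7 of 15 genes at least 2-fold lower. In high-share members 4 of 16 were at least 2-fold lower, 12 had a log2 ratio below 0 and the median was -0.27. Junb was within 2-fold there, at 324 and 222 CPM (0.686, 0.523 to 0.885), and Nfkbia was at 329 and 369 CPM (1.12, 0.906 to 1.37). Fos was at 66.4 and 13.7 CPM there (0.206, 0.0553 to 0.538) and Dusp1 at 95.0 and 44.4 CPM (0.467, 0.245 to 0.817). In thinned cells Fos was seen in 14.8% of wild-type and 0.543% of SCD members (30.2% and 8.70% before thinning), against 4.25% and 0.885% of plasmacytoid dendritic cells, whose median depth was 11161 and 9070 UMIs. Before thinning, Fos was seen in 14.0% and 2.65% of those cells. The thinned SCD share rests on 1 cell. Neutrophils differed in the same direction, with Fos at 370.2 and 9.76 CPM and Dusp1 at 765 and 39.1 CPM, and their part in the members' values was not tested.

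Of 10 expressed heat shock chaperones, 5 were at least 2-fold lower and none at least 2-fold higher. The log2 ratio was below 0 for 9 and above it for Hspe1, with medians of -0.96 in the members, -0.90 in high-share members and -0.39 in classical monocytes. Hspa1b, an inducible HSP70, had the lowest ratio of the list, at 107 CPM in the wild-type against 3.11 CPM in the SCD cells (0.0291, 0.0106 to 0.0638). It was counted 429 times in 157 wild-type members and 6 times in 4 SCD members. Its copy Hspa1a is near identical, so reads may be split between them, and Hspa1a was lower too, at 36.9 and 3.62 CPM. Hsph1, an HSP110 that helps HSP70 release its clients, was at 80.0 and 26.4 CPM (0.330, 0.241 to 0.445). Hsp90aa1, the inducible HSP90, was at 549 and 215 CPM (0.392, 0.352 to 0.436). The constitutive chaperones differed less, with Hsp90ab1 at 1637 and 1104 CPM (0.674, 0.642 to 0.708), Hspa8 at 1481 and 969 CPM (0.654, 0.621 to 0.689) and Hspa5, of the endoplasmic reticulum, at 455 and 259.9 CPM (0.571, 0.516 to 0.631). In high-share members Hspa1b was at 124 and 17.1 CPM (0.138, 0.0445 to 0.326) and Hsph1 at 93.7 and 23.9 CPM (0.255, 0.101 to 0.536). The heat shock list was thus about as much lower in the high-share members as in all members, whose medians for the non-classical programme were -0.20 and -1.12.

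**Figure D3:**
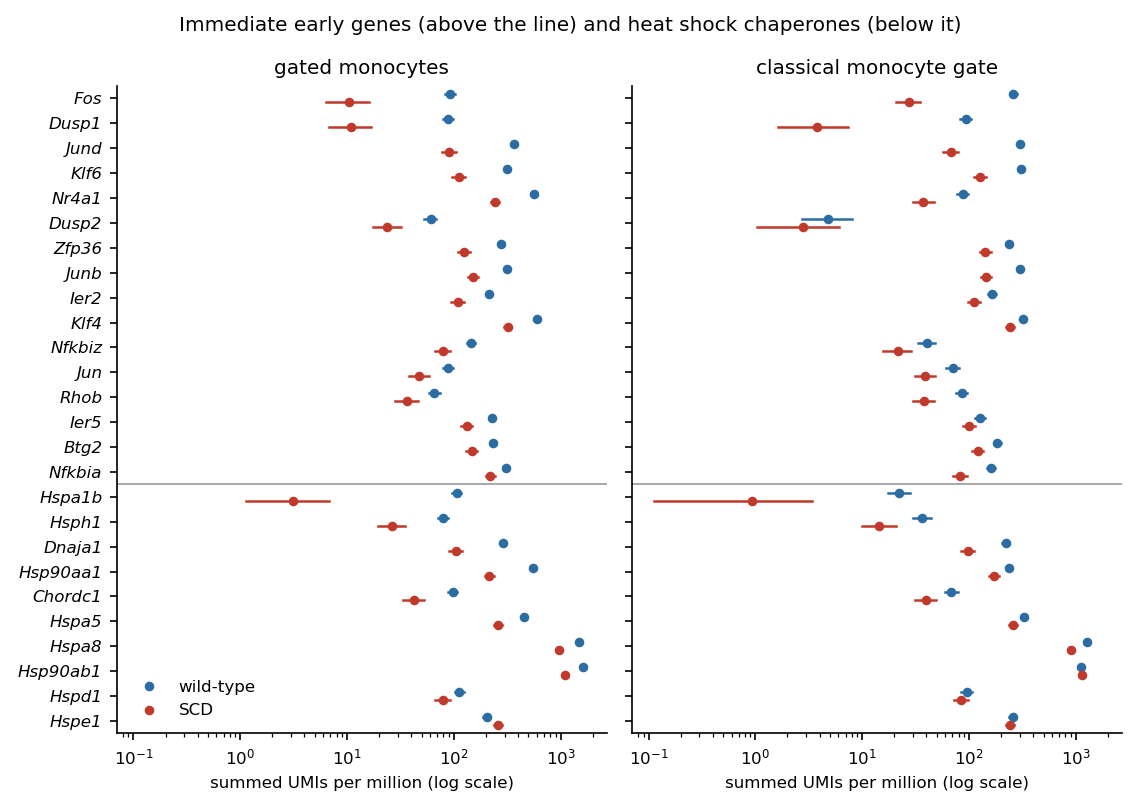
Summed CPM (log scale) of the 16 expressed immediate early genes (above the grey line) and 10 heat shock chaperones (below it) in gated monocytes (left) and classical monocytes (right), wild-type in blue and SCD in red, with exact 95% Poisson intervals as lines. In gated monocytes the red points of Fos, Dusp1 and Hspa1b lie farthest from the blue ones, with Fos at 91.7 and 10.4 CPM in gated and 260.6 and 27.2 CPM in classical monocytes.

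Since many genes of these lists were lower together, RefSeq promoter windows (GRCm38.p6, 250 bases before to 50 after each start) were searched on both strands for the elements that their best known regulators bind. The cyclic AMP element, TGACGTCA, was in the windows of 549 of 27025 genes (2.03%) and of 4 of the 24 immediate early genes that matched a window, Btg2, Dusp1, Maff and Ppp1r15a. The heat shock element, spelt GAA, any 2 bases, TTC, any 2 bases and GAA, was in 179 genes (0.662%) and in 4 of 13 matched heat shock genes, Chordc1, Hspd1, Hspe1 and Hsph1. Of these, Hspe1 was the 1 expressed chaperone that was higher in the SCD members, at 203 and 258 CPM (1.27, 1.14 to 1.42). Neither element was found in the windows of the 21 matched genes of the non-classical programme. The serum response core, spelt CCAT, ATTA and GG without a gap, was in 21 genes (0.0777%) and an NR4A element, AAAGGTCA, in 460 (1.70%), and neither was in a window of an immediate early or a non-classical programme gene, while the NR4A element was in those of 2 heat shock genes, Hspd1 and Hspe1. The stretch before the start of Dusp1 (chr17:26508473-26508722, minus strand) is shown with the cyclic AMP element in capitals, and the 30 bases around the heat shock element of Hsph1 (chr5:149636279-149636308, minus strand) with that element, read on the opposite strand, in capitals. They are given since both genes were past 2-fold in the members.
Dusp1: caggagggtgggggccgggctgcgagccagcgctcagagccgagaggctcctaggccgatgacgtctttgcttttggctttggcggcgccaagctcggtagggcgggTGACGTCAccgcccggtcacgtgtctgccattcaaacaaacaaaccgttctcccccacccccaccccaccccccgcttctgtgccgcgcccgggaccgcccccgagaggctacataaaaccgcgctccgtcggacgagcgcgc
Hsph1: gctgcagaTTCTGGAAAGTTCtcctcagta
A match is a description of the letters in the window. Only the spellings given were searched, so other forms of an element and sites outside the window would be missed. The window of Hspa1b held no run of the heat shock letters searched.

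Of 12 expressed genes of heme and iron handling, none was past 2-fold in all members, and the median was 0.11. Hmox1, heme oxygenase 1, which breaks heme down, was at 451 CPM in the wild-type against 354 CPM in the SCD cells (0.785, 0.718 to 0.858). The ferritin chains that store iron were at 3729 and 4495 CPM for Fth1 (1.21, 1.17 to 1.24) and at 5108 and 5574 CPM for Ftl1 (1.09, 1.07 to 1.12). Lrp1, the receptor for heme bound to hemopexin, was at 523 and 460.2 CPM (0.879, 0.812 to 0.951). In high-share members the median was higher, at 0.46, with Fth1 at 3253 and 6043 CPM (1.86, 1.76 to 1.96) and Hmox1 at 366 and 707 CPM (1.93, 1.65 to 2.25). The share of high-share members with any Hmox1 UMI was 43.1% in the wild-type and 44.2% in the SCD library. Of the 207 SCD UMIs of Hmox1, 91 came from 2 cells, as did 199 of the 794 wild-type UMIs, and without the top 2 cells the sums were 274 and 396 CPM. The CPM of Hmox1 was thus lower over all SCD members and higher over the high-share ones, while the share of all members with a UMI was 52.0% and 57.6%, or 23.2% and 22.3% after thinning. Spic, the transcription factor of red pulp macrophages, was picked after its values had been seen. In high-share members it was at 37.8 and 167 CPM (4.42, 3.04 to 6.38), with 23 of its 49 SCD UMIs from 1 cell. Without the top 2 cells of each library it was at 27.7 and 68.3 CPM there. Over all members it had 207 and 130 UMIs, and without the top 2 cells it was at 43.4 and 49.7 CPM. The 8 red pulp macrophage markers, which include Spic and Hmox1, summed to 424 and 888 CPM in high-share and to 544 and 472 CPM in all members. They were all detected in the wild-type members, Cd163 was at 0 in the SCD members, and the median member of either library held 1 UMI of the list and the highest 149 and 146. The part of macrophage transcripts in these values was not tested.

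NRF2 is the transcription factor that answers oxidants and heme. Of the 15 expressed NRF2 and antioxidant genes, none was past 2-fold in the members and the median was 0.10, against 0.53 in high-share members and 0.099 in classical monocytes. Prdx1, a peroxiredoxin, was at 901 and 1084 CPM in all members and at 830.4 and 1578 CPM in high-share members (1.90, 1.71 to 2.11). Gsr, glutathione reductase, was at 637 and 768 CPM (1.21, 1.13 to 1.29) and at 620.0 and 915 CPM (1.48, 1.29 to 1.68). Of the pentose phosphate enzymes, Taldo1 was at 825 and 1015 CPM (1.23, 1.16 to 1.30) and Tkt at 601 and 600.5 CPM (0.999, 0.931 to 1.07). In high-share members, 2 of 14 genes were at least 2-fold higher, Gclm, for a subunit of the enzyme that makes glutathione, and the thioredoxin gene Txn1, both named after their values had been seen. Of the 31 SCD UMIs of Gclm, 16 came from 2 cells, and without the top 2 cells it was at 35.1 and 51.2 CPM. Txn1 was at 383 and 792 CPM there (2.07, 1.78 to 2.39), and at 357 and 669.5 CPM without the top 2 cells, within 2-fold.

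**Figure D4:**
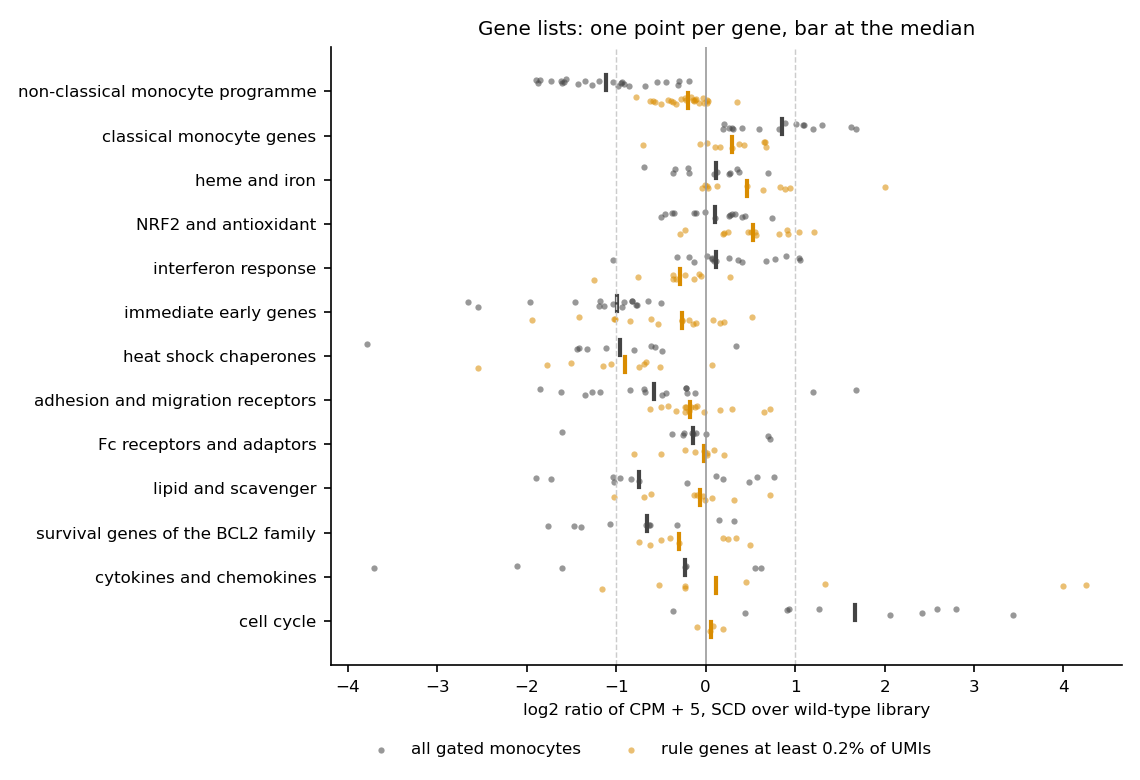
Each point is 1 expressed gene of a list and each bar the list's median, on the log2 ratio of CPM + 5 of the SCD over the wild-type library, for all gated monocytes (grey) and high-share members (orange). Dashed lines mark 2-fold. The non-classical list has its median at -1.12 in all and -0.20 in high-share members and the heat shock list at -0.96 and -0.90. Each median is over the genes expressed in that set, so those of the cell cycle, over 10 and 4 genes, cannot be compared.

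Of 17 expressed interferon response genes, 2 were at least 2-fold higher, against 1.57% of all genes, and 1 at least 2-fold lower, against 3.4%. The median was 0.11, with 13 log2 ratios above and 4 below 0. In high-share members only 10 of the genes were expressed, 1 above and 9 below 0 with a median of -0.28, so the medians are over different genes. Isg15, a ubiquitin-like antiviral protein, was at 34.6 and 76.6 CPM (2.21, 1.74 to 2.81) and Oasl2 at 40.4 and 89.6 CPM (2.22, 1.78 to 2.77). Without the top 2 cells of each library Isg15 was at 30.1 and 59.5 CPM and Oasl2 at 36.9 and 73.0 CPM, both within 2-fold after the pseudocount, and all 3 UMIs of Isg15 in SCD high-share members came from 1 cell. The 1 lower gene was Irf1, a transcription factor induced by interferon gamma, which was at 119 and 55.4 CPM (0.467, 0.375 to 0.577). Ifitm3, which blocks virus entry, was at 4188 and 4529 CPM (1.08, 1.05 to 1.11) and the immunoproteasome gene Psmb8 at 368 and 371 CPM (1.01, 0.920 to 1.10). The DNA sensor gene Ifi204 was at 169 and 203 CPM (1.21, 1.06 to 1.37).

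Of 16 expressed receptors of adhesion and migration, 5 were at least 2-fold lower and 2, among them Ccr2, at least 2-fold higher, with a median of -0.58. In high-share members none of 16 was past 2-fold and the median was -0.18. S1pr5, a sphingosine phosphate receptor that lets non-classical monocytes leave the marrow, was at 185 CPM in the wild-type against 47.6 CPM in the SCD cells (0.258, 0.205 to 0.321) and in high-share members at 292 and 188 CPM (0.644, 0.480 to 0.850). Itga4, the alpha chain of VLA-4, was at 987 and 857 CPM (0.868, 0.819 to 0.920) in all and at 1161 and 1421 CPM (1.22, 1.10 to 1.36) in high-share members. There, 72 of its 416 SCD UMIs came from 2 cells, and without the top 2 cells it was at 1131 and 1175 CPM. Cd47, the signal that protects cells from engulfment, was at 949 and 674 CPM (0.710, 0.667 to 0.757).

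Of 10 genes of Fc receptors, through which these cells bind antibody, and their adaptors, 1 was at least 2-fold lower. Fcgr4, the receptor for IgG2 that marks non-classical monocytes, was at 272 and 85.9 CPM (0.316, 0.267 to 0.372) in all and at 437 and 307 CPM (0.704, 0.560 to 0.874) in high-share members. The other 9 were within 2-fold and the median was -0.15, close to that of all genes. The signalling chains Fcer1g and Tyrobp were at 3211 and 2686 CPM (0.836, 0.810 to 0.864) and at 3986 and 3982 CPM (0.999, 0.972 to 1.03), and the kinase genes Lyn at 632 and 572 CPM (0.904, 0.842 to 0.971) and Fgr at 550.4 and 421 CPM (0.766, 0.706 to 0.830).

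Lipid and scavenger genes were lower in part. Of 13 expressed genes, 4 were at least 2-fold lower and none at least 2-fold higher, with a median of -0.74 in all and -0.065 in high-share members. Cd36 had a ratio of 0.293 (0.254 to 0.337), and in thinned cells it was seen in 46.0% and 16.3% of members (68.7% and 22.3% before thinning), against 0.565% and 0.109% of neutrophils. Apoe, the apolipoprotein that takes up cellular cholesterol, was at 3111 and 1594 CPM (0.513, 0.493 to 0.533) and differed as much in high-share members, at 3085 and 1513 CPM (0.490, 0.444 to 0.540), and in classical monocytes, at 2205 and 1160.2 CPM. Npc2 and Lipa, which free and export cholesterol in the lysosome, were at 739.7 and 1106 CPM (1.49, 1.41 to 1.58) and at 202 and 231 CPM (1.15, 1.02 to 1.29), higher in the SCD members.

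The BCL2 family list holds genes that protect from cell death and genes that promote it, with 4 of 10 expressed genes at least 2-fold lower, none at least 2-fold higher and a median of -0.65. In high-share members none of 9 was past 2-fold. The 4 genes were Bcl2 and the A1 copies Bcl2a1a, Bcl2a1b and Bcl2a1d, all of which protect from cell death. Bcl2, which non-classical monocytes need to persist, was at 100.2 and 45.0 CPM (0.450, 0.352 to 0.568) in all and at 149 and 178 CPM (1.19, 0.872 to 1.60) in high-share members. Of its 52 SCD UMIs in high-share members 14 came from 2 cells, and without the top 2 cells it was at 143 and 130 CPM. Bcl2a1b had ratios of 0.367 (0.310 to 0.432) in all and 0.703 (0.546 to 0.894) in high-share members. Mcl1, a survival protein of short life, was at 887 and 571 CPM (0.644, 0.601 to 0.689), and Bax, which opens the mitochondrial membrane, at 167 and 186 CPM (1.11, 0.974 to 1.26). Bcl2l11, which promotes cell death and was picked after its values had been seen, was at 43.4 and 55.4 CPM (1.28, 0.995 to 1.63). Bax and Bcl2l11 were the 2 expressed genes of the list that were not lower, with intervals that held 1.

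Few cytokine genes were expressed, 7 of 22. Il1b, which encodes interleukin 1 beta, was at 117 CPM in the wild-type against 23.3 CPM in the SCD cells (0.199, 0.143 to 0.270) and at 151 and 64.9 CPM (0.429, 0.255 to 0.681) in high-share members. In thinned cells it was seen in 17.5% and 5.98% of members (40.6% and 14.7% before thinning), against 7.30% and 1.06% of plasmacytoid dendritic cells. Neutrophils held Il1b at 1969.9 and 191 CPM, over 10 times the level of the members in the wild-type library and lower in the SCD library too, and their part in these values was not tested. Ccl5 was at 94.4 and 2.59 CPM (0.0274, 0.00885 to 0.0645), but 326 of its 379 wild-type UMIs came from 2 cells, without which the wild-type sum was 13.2 CPM. Pdgfb, a growth factor for pericytes, was at 68.5 and 19.2 CPM (0.280, 0.193 to 0.395) and within 2-fold in high-share members, at 109 and 92.2 CPM (0.847, 0.547 to 1.26). The chemokine genes Ccl6 and Ccl9 were at 1023 and 871 CPM (0.851, 0.804 to 0.901) and at 321 and 495 CPM (1.54, 1.42 to 1.68), and Tgfb1 at 525 and 449 CPM (0.856, 0.790 to 0.927). In high-share members Cxcl2, Ccl4 and Tnf were at least 2-fold higher, named after their values had been seen, but all 29 SCD UMIs of Cxcl2 and all 37 of Ccl4 came from 1 cell each. Of the 22 SCD UMIs of Tnf, 14 came from 2 cells, and without the top 2 cells it was at 24.0 and 27.3 CPM.

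Transcripts of dividing cells were higher in the SCD members. Of 24 listed cell cycle genes, 10 reached the minimum, of which 6 were at least 2-fold higher and none at least 2-fold lower, with a median of 1.67. Those 6, Ube2c, Mki67, Top2a, Pclaf, Stmn1 and Cenpa, passed through the SCD library only, where they are high, so their count is a description, and the 4 genes that reached it in both libraries were within 2-fold. In high-share members only these 4 were expressed, so the median of 0.064 there is over other genes than that of all members. Ube2c, which drives the exit from mitosis, was at 1.99 CPM in the wild-type against 70.9 CPM in the SCD cells (35.6, 17.6 to 84.1), and the proliferation marker Mki67 at 4.98 and 64.2 CPM (12.9, 7.99 to 21.8). Of the 124 SCD UMIs of Mki67, 59 came from 2 cells, and without the top 2 cells it was at 4.24 and 33.6 CPM. Top2a, Pclaf, Cenpa and Stmn1 were then at 26.9, 24.3, 34.7 and 50.2 CPM in the SCD members. Without these cells Mki67, Top2a, Pclaf and Cenpa were thus under the minimum of 50 CPM, so the count of 6 leans on few cells. Tubb5, a tubulin, was at 141 and 273 CPM (1.93, 1.72 to 2.18), Hmgb2 at 578 and 1087 CPM (1.88, 1.77 to 2.00) and the histone gene H2afz at 757 and 1026 CPM (1.35, 1.28 to 1.43). Pcna, the clamp of DNA replication, was the exception at 120.3 and 92.7 CPM (0.770, 0.645 to 0.916). At least 2 UMIs of Mki67, Top2a, Birc5 and Ube2c were found in 7 wild-type members (1.35%, 0.546 to 2.77) and in 31 SCD members (16.8%, 11.7 to 23.1). Without these cells the median of the list was 0.24, and that of the non-classical programme was -1.01.

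Of single genes outside the lists, Tppp3, a tubulin-binding protein, was at 508 CPM in the wild-type against 69.9 CPM in the SCD cells (0.138, 0.115 to 0.164), and at 289 and 33.7 CPM in classical monocytes. Hpgd, which inactivates prostaglandins, was at 703 and 181 CPM (0.258, 0.230 to 0.288) and at 267 and 102 CPM in classical monocytes. Both were lower in the SCD cells of either monocyte type. L1cam, an adhesion molecule, was at 105 and 14.5 CPM (0.138, 0.0905 to 0.202) and Ddit4, an inhibitor of mTOR that responds to stress, at 52.6 and 7.25 CPM (0.138, 0.0741 to 0.237). Ltb, for the cytokine lymphotoxin beta, was at 143 and 28.5 CPM (0.199, 0.148 to 0.263), and Cd83, a glycoprotein of activated antigen-presenting cells, at 63.5 and 10.4 CPM (0.163, 0.0979 to 0.257). Scnn1a, a subunit of the epithelial sodium channel, was at 133 and 27.4 CPM (0.207, 0.153 to 0.274) and Heg1, a partner of endothelial junctions, at 108 and 24.3 CPM (0.226, 0.163 to 0.305). In high-share members Ddit4, L1cam and Ltb were still past 2-fold, at log2 ratios of -2.42, -1.46 and -1.17, whereas Cd83, Heg1, Scnn1a, Tppp3 and Hpgd were not, at -0.64, -0.74, -0.49, -0.95 and -0.86. For Cd83, Tppp3 and Hpgd part of the SCD sums came from few cells. For Tppp3 and Hpgd, 41 of 98 and 45 of 154 SCD UMIs came from 1 cell, and for Cd83 6 of 16 came from 2 cells. Without the top 2 cells of each library Tppp3 was at 629 and 157 CPM and Hpgd at 924 and 318 CPM. Cd83 was at 80.3 and 34.2 CPM. All of them were past 2-fold on these sums, which left out 2 of 332 wild-type but 2 of 43 SCD cells. That by itself can lower the ratio, so these sums do not show a 2-fold difference.

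Among the genes that were higher, Chil1, a chitinase-like protein of myeloid cells, was at 1.49 CPM in the wild-type against 95.3 CPM in the SCD cells (63.7, 28.7 to 176) and at 0.645 and 60.0 CPM in classical monocytes. Mt1, a metallothionein that binds zinc and is induced by metals and oxidants, was at 18.9 and 85.4 CPM, a ratio of 4.51, and it was higher in high-share members (20.8 and 106 CPM), classical monocytes (13.5 and 69.8 CPM) and neutrophils (13.8 and 57.8 CPM) of the SCD library too. In high-share members 22 of its 31 SCD UMIs came from 2 cells, and without the top 2 cells it was at 16.1 and 30.7 CPM. Wfdc17, an antiproteinase-like protein, was at 419.8 and 1388 CPM (3.31, 3.11 to 3.52) and at 72.9 and 287 CPM in high-share members. Saa3, an acute phase protein, was at 12.5 and 146 CPM (11.7, 8.65 to 16.2), with its 282 SCD UMIs in 16 cells and 41 of its 50 wild-type UMIs in 1 cell. None of those 16 cells was a high-share member, so the log2 ratio there was -0.55. Hp, haptoglobin, which binds free hemoglobin, was at 267 and 664 CPM (2.48, 2.29 to 2.70) and at 156 and 253 CPM (1.62, 1.24 to 2.08) in high-share members. Ms4a8a and Ms4a6d, of the MS4A membrane family, were at 25.7 and 90.6 CPM (3.53, 2.75 to 4.55) and at 66.5 and 176 CPM (2.65, 2.25 to 3.12). Ms4a6d was within 2-fold in high-share members, at 33.2 and 47.8 CPM (1.44, 0.750 to 2.57). Mfsd7a, Hmgn1 and Cenpa were also among the 12 highest, at log2 ratios of 1.33, 1.29 and 1.27. Of the 102 SCD UMIs of Cenpa, 35 came from 2 cells, and without the top 2 cells it was at 17.9 and 34.7 CPM, within 2-fold, as it was in high-share members at a log2 ratio of 0.092.

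Transcripts of neutrophils, the most frequent cells of both libraries, were also higher in the SCD members. The 13 neutrophil markers were all detected and summed to 322 and 1306 CPM in the members, with a median of 2 and 13 UMIs per cell, and to 415 and 1275 CPM in classical monocytes. S100a8, which the gate limits, Camp, Ngp and Ltf stood at 0.196 to 0.262% of their level in neutrophils in the wild-type and at 0.832 to 1.15% in the SCD members. Chil1 was at 0.580% of its neutrophil level in the wild-type and 23.6% in the SCD members, on 6 and 184 UMIs, Prtn3 at 5.05% and 18.1%, Hp at 16.5% and 51.2%, and Mt1 at 138% and 148%. Of other markers, the 10 conventional dendritic cell genes summed to 7629 and 4282 CPM, with Zbtb46, Dtx1 and Ccr7 at 0 in the SCD members, and the list holds Cst3, which monocytes also express. The 8 B cell genes summed to 23.4 and 159.4 CPM with Ms4a1 at 0 in both, 135 of the 308 SCD UMIs being in 1 cell. The 7 T and NK cell genes summed to 2.99 and 7.77 CPM, with Cd3e, Gzma and Klrb1c at 0 in both. The 6 plasmacytoid dendritic cell genes summed to 255 and 309 CPM, and the 7 erythroid genes to 28.2 and 37.3 CPM. Of 4 megakaryocyte genes 1 was detected per library, with 33 SCD UMIs in 1 cell, and the 4 basophil and mast cell genes were at 0. The part of free RNA or captured fragments of these cells in the values above was not tested.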

How the data were processed

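Per the labels, RNA of spleen cells enriched for dendritic cells was captured with 10x Genomics 3′ v3.1 chemistry from 1 wild-type and 1 SCD mouse. The authors deposited UMI counts for every gene and cell without normalizing them. The submitters' processing notes name Cell Ranger 4.0.0, Seurat 3.2.3, Scanpy 1.6.0, R 4.4 and GRCm38.p6. The files held 26124 genes, and cells were filtered here with the limits of the study's methods and gated by the rule above.

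UMI counts of the members of a library were summed and given as CPM, with a pseudocount of 5 CPM in log2 ratios (numpy 2.4.6, scipy 1.17.1, pandas 2.3.3 and matplotlib 3.10.9 in Python 3.11.15). Depth limits each value through its count, and intervals are exact (Clopper-Pearson, Poisson or conditional binomial). Sums without the top cells left out those cells' UMIs of the gene but kept the UMI total of all cells. Leaving out a deep cell therefore lowers such a sum by itself. The top 2 cells are also a larger part of the 43 SCD than of the 332 wild-type high-share members. Such sums can thus fall more in the SCD library, which by itself can lower a ratio. A test across samples could not be made with 1 library per genotype. Scrublet (scanpy 1.11.5, genes in at least 20 cells) marked 358 of 9423 wild-type and 196 of 10635 SCD cells as doublets, which were kept. The log2 ratios and their intervals were tested on simulated summed counts, whereas the gates were not.

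Named genes were the 12 highest and 12 lowest ratios among expressed genes and the 10 highest and lowest against classical monocytes. From each list, the 4 genes with the highest mean CPM and those past 2-fold were taken, up to 6. Rule genes, predicted, globin, immunoglobulin, T cell receptor, ribosomal, mitochondrial and sex-linked genes were left out. Against wild-type, so were other cell types' markers and genes over 10 times higher in another gated class. Together these limits removed 19 higher and 4 lower genes. Some genes that this rule names are not reported here. Other genes are said to have been picked after their values were seen. The members and the lists were chosen with earlier results of these data known. Alternatives changed the rule, filters, depth, scaling and pseudocount one at a time.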

Additional observations from a re-analysis of the deposited data

Results flagged for a closer look

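Cells above the upper limit of 5000 genes entered no comparison except the alternative with no upper limit on genes. Some of them met every other limit of the rule. They were 16 of 1220 such cells in the SCD and 5 of 295 in the wild-type library, which is 0.119% of the deposited SCD cells (0.0680 to 0.193) and 0.0461% of the wild-type cells (0.0150 to 0.108). They were singled out because the share of deposited cells was above that of the wild-type library, although both intervals overlap. Of the cells above the limit, the share was 1.31% in the SCD and 1.69% in the wild-type library, so it was not higher on that count. The 16 SCD cells had a median of 89447 UMIs, of which the rule genes made up a median of 0.00597%, and 15 counted as dividing by Mki67, Top2a, Birc5 and Ube2c, as did all 5 wild-type cells. If they are kept, they bring 39.8% of the summed UMIs of the SCD and 11.5% of those of the wild-type members.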

How the results depend on the processing

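No paired analysis was possible because there is a single library of either genotype, so none could be left out. The ratio of shares of 0.315 became 0.251 with at least 6 rule-gene UMIs, 0.263 with at least 1000 genes per cell, 0.416 outside the neutrophil gate, 0.110 after thinning to 3000 UMIs and 0.115 for high-share members. The number of members per classical monocyte, at a ratio of 0.504 between the libraries, became 0.229 without the S100a8 and S100a9 limit, 0.117 after thinning and 0.183 for high-share members. For 0.229 and 0.117 the classical gate changed as well, and which cells it then took in was not tested. Both stayed under 1 in every alternative.

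The counts of 55 higher and 119 lower genes became 34 and 75 with a pseudocount of 20 CPM, 193 and 217 of 13978 with no minimum, and 186 and 264 with no upper limit on genes per cell. The lower count became 182 after thinning to 2000 UMIs, 71 in high-share members and 68 in members with more rule-gene than classical-gene UMIs. The last 2 sets, members with at least 10 rule-gene UMIs and the removal of dividing members were added after seeing the data.

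In high-share members the list medians became -0.20 for the non-classical programme, 0.30 for classical genes, 0.46 for heme and iron, 0.53 for NRF2, -0.28 for interferon, -0.27 for immediate early genes, -0.18 for adhesion, -0.020 for Fc receptors, -0.065 for lipid genes, -0.29 for the BCL2 family, 0.11 for cytokines and 0.064 for the cell cycle, and Saa3 was at -0.55. The interferon medians, over 17 and 10 genes, and the cytokine medians, over 7 and 8 genes, differ in sign but are not over the same genes, and Cxcl2 and Ccl4 entered the latter through 1 SCD cell each. In members with more rule-gene than classical-gene UMIs they became -0.61 for the non-classical programme, 0.51 for classical genes, 0.63 for heme and iron, 0.46 for NRF2, -0.11 for interferon, -0.57 for immediate early genes, -0.37 for adhesion, -0.14 for lipid genes and 0.57 for the cell cycle. With at least 10 rule-gene UMIs they became -0.79 for the non-classical programme, -0.74 for immediate early genes, -0.44 for adhesion, -0.37 for cytokines and 0.50 for the cell cycle, and with at least 6 the non-classical programme became -0.99 and the cell cycle 0.32.

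With no upper limit on genes, which admits the 21 cells described above, they became -1.47 for the non-classical programme, 0.49 for classical genes, -0.10 for heme and iron, -0.22 for interferon, -1.32 for immediate early genes, -0.18 for heat shock, -0.86 for adhesion, -0.61 for Fc receptors, -1.04 for lipid genes, -1.18 for the BCL2 family, -1.29 for cytokines and 1.48 for the cell cycle. Thinning to 2000 UMIs gave -0.98 for the non-classical programme, 0.24 for heme and iron, -0.41 for lipid genes, -0.88 for cytokines and 0.89 for the cell cycle. Median-of-ratios scaling gave -0.97 for the non-classical programme, 0.25 for heme and iron, -0.44 for adhesion, -0.0012 for Fc receptors and -0.085 for cytokines. With no minimum, interferon became 0.39, immediate early genes -0.82, adhesion -0.46, lipid genes -0.30 and cytokines -0.070. With each member weighted equally, classical genes became 1.05, immediate early genes -0.83 and the cell cycle 0.67. The cell cycle median was 1.15 with a pseudocount of 20 CPM and 0.24 without dividing members. The causes were not tested.

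Of the 24 named genes, Chil1, Ddit4, Dusp1, Fos, Hspa1b, Jund, L1cam, Ltb, Mt1, Ube2c and Wfdc17 stayed past 2-fold in all 14 alternatives. The SCD high-share members are only 43 cells, and counts as low as the 6 SCD UMIs of Hspa1b have wide intervals.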
